A study of Rattus norvegicus with 6 samples.

Results

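The nuclear receptors of the PPAR family, their RXR partners, the coactivators PGC-1α and PGC-1β and the oxysterol receptor LXRα were followed in the skeletal muscle of newborn rats of low and of average birth weight. The set was defined by name as *Pparg*, *Ppara*, *Ppard*, *Rxra*, *Rxrb*, *Rxrg*, *Ppargc1a*, *Ppargc1b*, *Nr1h3* and *Nrip1*. A RefSeq gene table of the rat paired 9 of these 10 genes with a row of the array, out of 26300 genes or unnamed transcripts tested. *Nrip1* was not analysed here. RNA of the soleus and gastrocnemius muscles, collected as a single sample, was measured in 6 male Wistar pups at the age of 1 day, with 1 NimbleGen single-colour array per pup. The 3 lower birth weight (LBW) pups weighed between percentiles 5 and 25 at birth. The 3 average birth weight (ABW) pups weighed between percentiles 50 and 75 by the treatment protocol, and between 25 and 75 by the sample characteristics. No engineered allele and no agent is described for any pup, and birth weight varied within normal pregnancies of rats mated in 12 groups, so that low birth weight here is the lower range of normal growth and not an induced restriction. The litter of each pup is not given in the sources used here.

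PPARs are nuclear receptors that bind fatty acids and their derivatives, pair with an RXR, and sit with it on DNA elements near genes of lipid uptake, storage and oxidation. PPARγ is best known as the receptor that drives fat cell formation and insulin sensitivity, whereas PPARα and PPARδ are known in muscle for genes of fatty acid oxidation. PGC-1α and PGC-1β are coactivators that PPARs and other receptors recruit to raise mitochondrial and oxidative genes, and LXRα, encoded by *Nr1h3*, is an RXR partner that responds to oxysterols in fat, liver and macrophages.

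Each value is a log2 array signal that the authors normalized and deposited, with medians between 8.695 and 8.757 over the 6 arrays. The mean signals of the 9 genes lay between percentiles 47.8 and 93.1 of all features, above the dimmest 25% of the array. No detection call accompanied the values, so how far a signal lies above background is unknown. The levels of different genes come from different probes and are not set against each other. LBW 2 stood apart from its group, because the array most like its own over all features was that of ABW 1 (Pearson r 0.9925 across features, which are not independent replicates), ahead of LBW 1 (0.9913) and LBW 3 (0.9872). The markers of the labelled tissue were present in all pups. The actin gene *Acta1* was between 15.15 and 15.41, and the muscle creatine kinase gene *Ckm* was between 14.83 and 15.06. None of the 13 skeletal muscle markers with a row passed the threshold of the study, and their median log2 change was 0.05. In whole tissue, fewer cells of a type and less RNA per cell cannot be told apart.

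In LBW compared to ABW pups, *Pparg* and *Nr1h3* were lower and *Ppara* was higher. In a limma fit, these 3 genes passed the threshold of the study, a p under 0.05 and a change of at least 1.5-fold. The fit was over all features, and its p was taken here as unadjusted. The threshold was passed by 4.27% of all features, of which 2.38% of the array was higher and 1.89% was lower. The values of the LBW pups did not overlap those of the ABW pups in 5 of the 9 genes, 3 of them higher (*Ppara*, *Ppard* and *Ppargc1b*) and 2 lower (*Pparg* and *Nr1h3*), while 17.4% of all features did not overlap. The same 5 genes had an unadjusted p under 0.05, which 12.4% of all features had (5.63% higher and 6.73% lower). Whatever the p, 4 of the 9 genes were higher, as were 44.4% of all features. The median absolute log2 change was 0.23 in the 9 genes and 0.13 over all features. After Benjamini-Hochberg adjustment over all features, limma called 0 of the 9 genes and 0 of the 26300 features at 0.05. The adjusted p of the 9 genes ran from 0.286 to 0.974. Without LBW 2, 3 of the 9 genes and 5.88% of all features passed the threshold of the study. The Student's test named in the statistics section of the methods called 1 of the 9 genes at the same threshold, *Ppara*, and 2.22% of all features. A permutation test of 3 pups against 3 cannot give an exact p under 0.1.

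**Figure D1:**
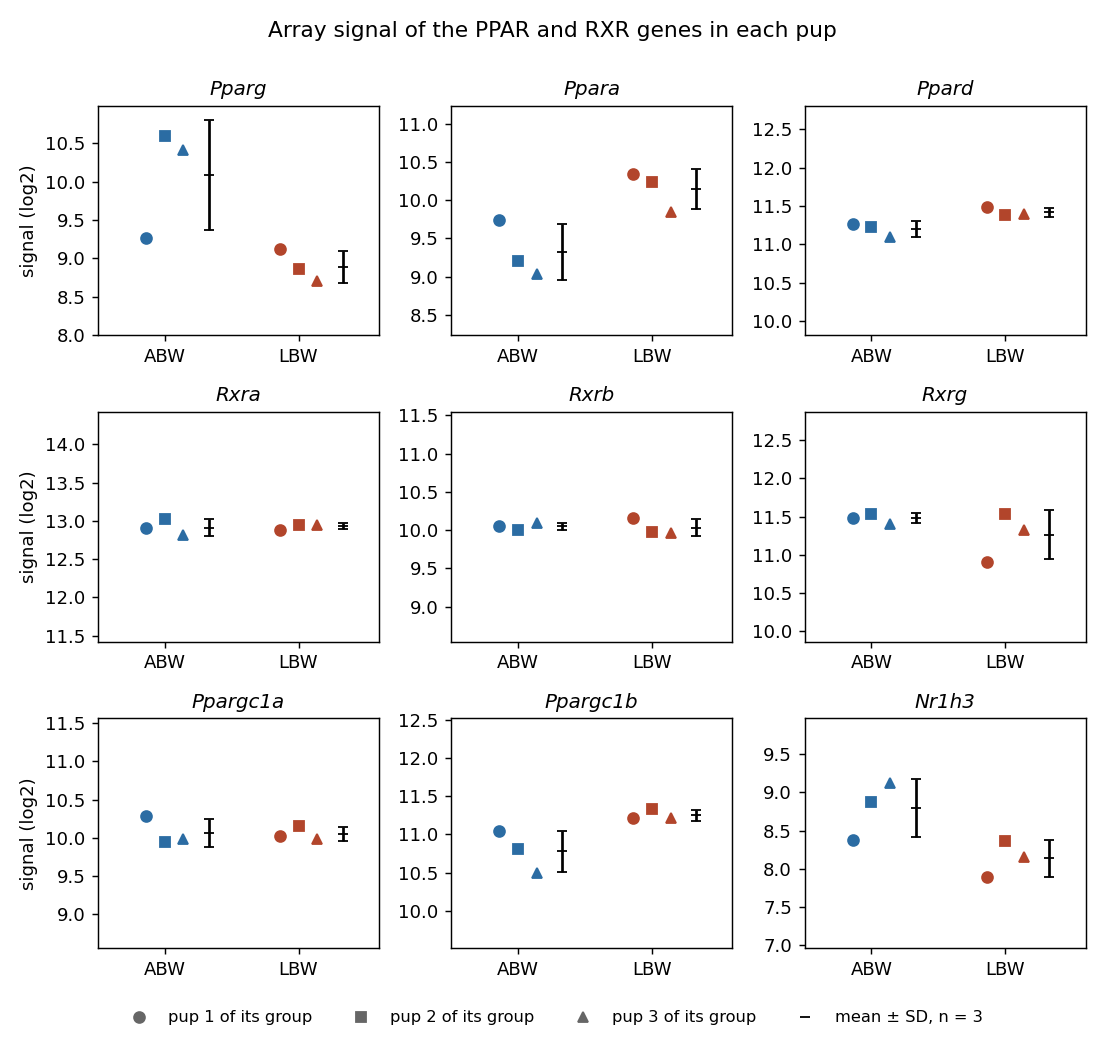
Log2 array signal of the 9 genes in each pup (y axis, the same span of log2 units in every panel) for ABW (blue) and LBW (red) pups, with the mean ± SD of 3 pups beside the points. *Pparg* and *Nr1h3* lie lower and *Ppara*, *Ppard* and *Ppargc1b* lie higher in all LBW pups than in any ABW pup, and *Pparg* in ABW 1 lies near the LBW pups.

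*Pparg* (NM_013124), which encodes PPARγ, read 9.12, 8.86 and 8.70 in LBW 1, 2 and 3 and 9.26, 10.60 and 10.42 in ABW 1, 2 and 3. The ABW pups were split, with ABW 1 only 0.15 above the highest LBW pup and the other 2 more than 1 log2 unit above all LBW pups. *Pparg* fell by 1.20 on the log2 scale (SE 0.35, 95% CI -2.04 to -0.36, adjusted p = 0.302 by limma), which makes it 2.30-fold higher in ABW pups. Leaving out each pup in turn gave log2 changes between -1.62 (without ABW 1) and -0.95, all past the threshold of the study, but the Student's test of the methods left it short of that threshold.

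Rat RefSeq models (assembly GRCr8) place *Pparg* starts at 2 sites on chromosome 4, and the array gives a single value for the gene. Which of the transcripts its probes read is not given in the sources used here. The 250 bases before each start are shown because *Pparg* had the largest change of the 9 genes and its starts differ in CpG dinucleotides, the sites of DNA methylation. CpG dinucleotides are in capitals, and both windows read 5′ to 3′ on the plus strand, at chr4:150096808-150097057 and chr4:150154522-150154771.
Pparg, start 1: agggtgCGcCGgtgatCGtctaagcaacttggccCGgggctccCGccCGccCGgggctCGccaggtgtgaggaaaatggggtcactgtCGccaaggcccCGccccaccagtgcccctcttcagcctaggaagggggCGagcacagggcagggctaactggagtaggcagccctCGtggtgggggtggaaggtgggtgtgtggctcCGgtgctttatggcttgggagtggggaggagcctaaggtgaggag
Pparg, start 2: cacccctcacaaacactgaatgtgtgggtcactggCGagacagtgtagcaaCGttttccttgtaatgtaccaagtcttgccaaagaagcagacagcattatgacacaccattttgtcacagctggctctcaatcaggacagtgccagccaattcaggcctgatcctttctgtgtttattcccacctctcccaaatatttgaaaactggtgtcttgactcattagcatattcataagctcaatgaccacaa
The first window holds 13 CpG and 67.2% G and C, and the second holds 2 CpG and 44.8%. The median of 33465 such windows from 27456 genes is 5 CpG and 51.2% G and C. Methylation was not measured on these arrays.

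*Ppara* (NM_013196), the receptor of fatty acid oxidation, had the opposite direction. It read 10.34, 10.24 and 9.85 in LBW 1, 2 and 3 and 9.74, 9.20 and 9.03 in ABW 1, 2 and 3, so that all LBW pups were above all ABW pups by at least 0.12. *Ppara* rose by a log2 change of 0.82 (SE 0.22, 95% CI 0.30 to 1.34, adjusted p = 0.286 by limma), or 1.77-fold. It passed the threshold of the study with each pup left out in turn (0.68 to 1.03). The window before its start, at chr7:118712357-118712606 on the plus strand, is shown beside those of *Pparg*. It holds 27 CpG, which is percentile 92.8 of the CpG counts of all windows.
Ppara: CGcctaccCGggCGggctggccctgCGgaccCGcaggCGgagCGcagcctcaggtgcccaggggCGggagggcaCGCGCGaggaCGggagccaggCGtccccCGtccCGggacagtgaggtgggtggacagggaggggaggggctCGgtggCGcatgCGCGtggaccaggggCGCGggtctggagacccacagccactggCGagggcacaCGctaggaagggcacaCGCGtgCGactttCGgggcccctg

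*Ppard* (NM_013141), the third isoform and a receptor of endurance and oxidative genes in muscle, read 11.49, 11.38 and 11.40 in LBW pups and 11.27, 11.23 and 11.09 in ABW pups. The groups did not overlap, with a gap of 0.11, but the log2 change of 0.23 (SE 0.09, adjusted p = 0.384 by limma) was 1.17-fold and under the fold criterion. The isoforms therefore differed in direction between these groups, with *Pparg* lower and *Ppara* higher.

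The RXR genes encode the partners that every PPAR needs to bind its DNA elements, and none of the 3 passed the threshold. *Rxra* (NM_012805) read 12.88, 12.95 and 12.95 in LBW and 12.91, 13.02 and 12.81 in ABW pups. Its log2 change was 0.01 with a 95% CI of -0.20 to 0.23 (adjusted p = 0.967 by limma), an interval that leaves out a 1.5-fold change either way, and its sign turned to -0.04 without ABW 3 and to -0.01 with array weights. *Rxrb* (NM_206849) read 10.16, 9.98 and 9.96 in LBW and 10.06, 10.00 and 10.10 in ABW pups, a log2 change of -0.02 (95% CI -0.25 to 0.20), whose sign turned to 0.01 with array weights. *Rxrg* (NM_031765), the RXR most typical of muscle and brain, read 10.91, 11.53 and 11.33 in LBW and 11.48, 11.54 and 11.40 in ABW pups. Its log2 change of -0.22 (95% CI -0.61 to 0.18, adjusted p = 0.640 by limma) came mostly from LBW 1, without which it was -0.04.

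Of the coactivators, *Ppargc1a* (NM_031347), which encodes PGC-1α, read 10.02, 10.15 and 9.99 in LBW and 10.28, 9.94 and 9.98 in ABW pups. The groups overlapped and the log2 change was -0.01 (95% CI -0.30 to 0.27, adjusted p = 0.974 by limma), with a sign that turned to 0.02 with array weights. *Ppargc1b* (NM_176075), which encodes PGC-1β, read 11.21, 11.33 and 11.21 in LBW and 11.04, 10.81 and 10.49 in ABW pups. All LBW pups were above all ABW pups by at least 0.17. Its log2 change of 0.47 (SE 0.15, adjusted p = 0.315 by limma) was 1.39-fold and short of the fold criterion, which it passed only without ABW 1 (0.60).

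*Nr1h3* (NM_031627), which encodes LXRα, read 7.89, 8.37 and 8.16 in LBW and 8.38, 8.87 and 9.12 in ABW pups. The groups were only 0.01 apart, between LBW 2 and ABW 1. *Nr1h3* fell by 0.65 on the log2 scale (SE 0.22, 95% CI -1.17 to -0.13, adjusted p = 0.331 by limma), or 1.57-fold, and the call was lost without LBW 1 (-0.53), without ABW 2 (-0.61) and without ABW 3 (-0.49). Its promoter window, at chr3:97623230-97623479 on the minus strand, holds 3 CpG and is shown because *Nr1h3* and *Pparg* were the members that were called lower.
Nr1h3: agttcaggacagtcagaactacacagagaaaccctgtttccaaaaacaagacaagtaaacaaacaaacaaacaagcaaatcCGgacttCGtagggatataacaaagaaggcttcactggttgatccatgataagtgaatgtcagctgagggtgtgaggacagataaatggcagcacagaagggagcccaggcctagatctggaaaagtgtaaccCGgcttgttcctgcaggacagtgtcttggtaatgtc
Promoter windows were matched for 8 of the 9 genes, 9 windows in all. None holds the receptor hexamer AGGTCA on either strand, which 14.1% of all windows of this length hold, or the direct repeat AGGTCANAGGTCA that PPAR and RXR bind, which 0.0508% hold.

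**Figure D2:**
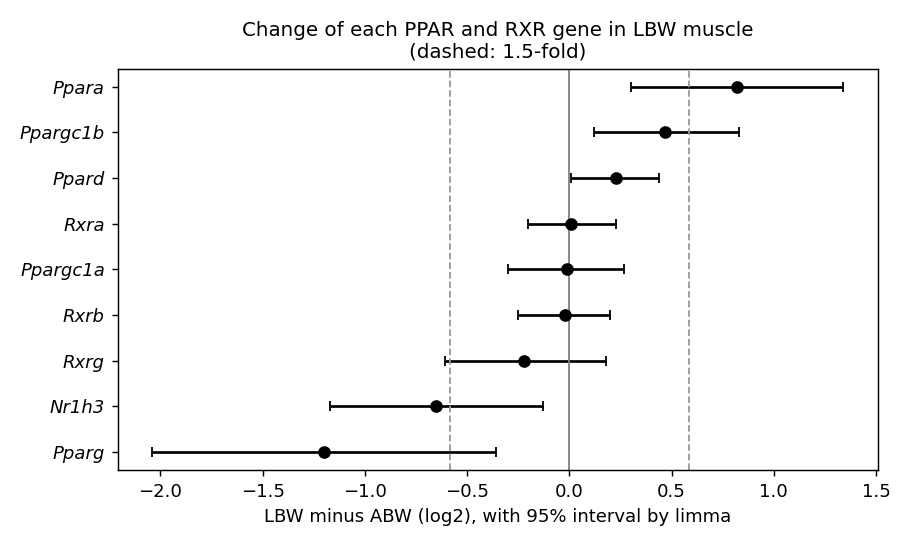
Log2 change of LBW against ABW (x axis) for the 9 genes, with the 95% confidence interval of the limma fit as bars, over 3 pups in each group, and dashed lines at 1.5-fold. The intervals of *Pparg* and *Nr1h3* lie below 0, those of *Ppara*, *Ppard* and *Ppargc1b* lie above 0, and those of the 3 RXR genes and *Ppargc1a* span 0.

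To compare *Pparg* with its isoforms and partners, its signal was taken minus that of each partner within the same pup, which removes any offset of the array. Against *Ppara* the difference of LBW from ABW pups was -2.03 log2 units, with LBW 1, 2 and 3 at -2.00, -2.15 and -1.93 and ABW 1, 2 and 3 at -1.24, 0.62 and 0.62 around the ABW mean. The difference was -1.43 against *Ppard* and -1.68 against *Ppargc1b*, and -1.22 against *Rxra* and -1.18 against *Rxrb*. In these 5 comparisons the groups did not overlap (exact permutation test, 2-sided p = 0.1, the smallest possible, and 0.16 after adjustment over the 8 partners). Against *Rxrg* (-0.99), *Ppargc1a* (-1.19) and *Nr1h3* (-0.55) the groups overlapped (exact permutation test, p = 0.2, adjusted 0.2). Against the mean of the other 8 genes, *Pparg* was at -1.02, -1.40 and -1.43 in LBW and at -0.90, 0.50 and 0.40 in ABW pups, a difference of -1.28 (exact permutation test, 2-sided p = 0.1). ABW 1 was thus the ABW pup nearest the LBW pups in every one of these comparisons, and the difference lay between -1.73 (without ABW 1) and -1.03 when each pup was left out.

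**Figure D3:**
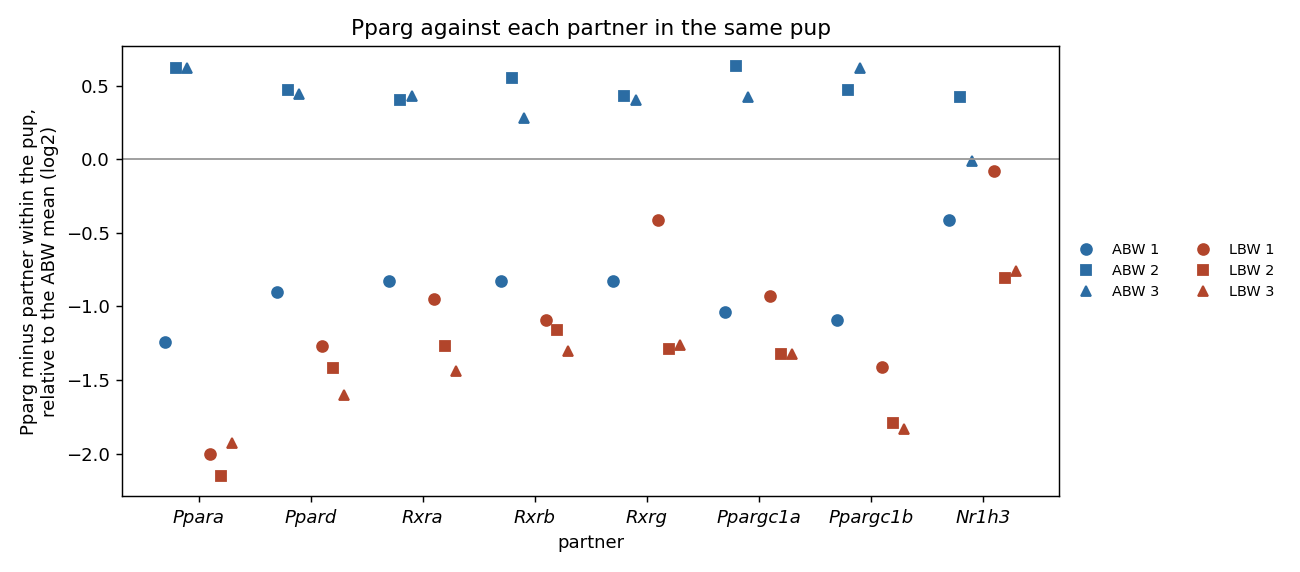
*Pparg* minus each partner within a pup, relative to the ABW mean (y axis, log2), for the 8 partners along the x axis, with ABW pups in blue and LBW pups in red. The LBW pups lie below all ABW pups against *Ppara*, *Ppard*, *Rxra*, *Rxrb* and *Ppargc1b*, and ABW 1 is the lowest ABW pup against every partner.

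Other genes of the receptor complex were taken from lists chosen by their known function. Of the coregulators, such as acetyltransferases, arginine methyltransferases and deacetylases, 8 of 20 had a row, and 0 of them passed the threshold, with 4 higher and 4 lower and a median log2 change of -0.04, where the median over all features was -0.02. The largest was the acetyltransferase gene *Crebbp* at 0.23. The deacetylase genes *Hdac3* and *Hdac1* were at -0.18 and -0.17, and the methyltransferase gene *Carm1* was at 0.20. The groups did not overlap for *Hdac1* and *Carm1*. Of the other RXR partner receptors, 10 of 12 had a row and 1 passed, higher. *Nr4a1*, the orphan receptor Nur77 of the immediate early response, read 11.23, 11.25 and 11.39 in LBW and 10.54, 10.37 and 10.06 in ABW pups, and rose by 0.97 (SE 0.14, adjusted p = 0.214 by limma), or 1.95-fold, also with each pup left out. *Vdr*, the vitamin D receptor, was at 8.57 and 8.99 in LBW 1 and LBW 3 but at 6.80 in LBW 2, and at 5.96, 6.98 and 7.16 in ABW pups. Its log2 change of 1.42 did not pass, and it lay between 0.98 and 2.08 (without LBW 2) with each pup left out, past the threshold in 1 of these 6 fits. The thyroid hormone receptor gene *Thra* (-0.01) and the retinoic acid receptor gene *Rara* (0.04), the brightest of the list, differed little.

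Of 12 genes that govern fat cell formation with a row, nearly all transcription factors, 1 passed, higher, and the median change was -0.01. *Cebpd*, an early factor of fat cell formation that precedes *Pparg*, read 8.65, 8.83 and 8.03 in LBW and 7.82, 7.86 and 7.65 in ABW pups, and rose by 0.73 (SE 0.21, adjusted p = 0.302 by limma), a call lost without LBW 2. *Dlk1*, a preadipocyte gene also abundant in growing muscle, was at -0.01. Of 15 genes of ligand supply and carriage with a row, *Cyp26b1*, which breaks down retinoic acid, the ligand of the retinoic acid receptors, rose by 1.21 (SE 0.33, adjusted p = 0.292 by limma), from 6.12, 6.53 and 6.05 in ABW to 8.21, 6.97 and 7.15 in LBW pups. ABW 1 and ABW 3 lie in the range of the dimmest 25% of features (mean signal up to 6.21), so that the size of this change is uncertain, and it was 0.82 without LBW 1. *Pla2g4a*, a phospholipase that frees arachidonic acid, fell by 0.63 (SE 0.16, adjusted p = 0.279 by limma), from 10.68, 10.84 and 11.17 in ABW to 10.08, 10.24 and 10.48 in LBW pups, a call lost without LBW 1 or ABW 3. The other 13 did not pass, among them the fatty acid carrier genes *Fabp3* at 0.03 and *Fabp5* at -0.02.

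The direction in which PPARγ acts on each gene of its list of fat cell targets was not tested. These listed targets were lower in 22 of 23 with a row, 4 of them past the threshold and 0 higher past it. Their median log2 change was -0.27, and 55.6% of all features were lower. The 4 were *Aqp7*, *Lep*, *Adrb3* and *Acvr1c*, of which *Lep*, *Acvr1c* and *Adrb3* are genes that the study names as lower in these samples, so that the count is not independent of the study's own choice. *Aqp7*, the glycerol channel of fat cells, read 11.33, 11.90 and 11.44 in LBW and 11.96, 12.52 and 12.14 in ABW pups and fell by 0.65 (adjusted p = 0.315 by limma). *Lep*, the leptin gene, read 5.91, 5.96 and 5.75 in LBW and 6.05, 8.09 and 8.18 in ABW pups, so that ABW 1 was near the LBW pups as it was for *Pparg*. These 4 low values lie under 6.21, the upper limit of the mean signal of the dimmest 25% of features, so that the call of *Lep* rests on ABW 2 and ABW 3 and the size of its log2 change (-1.57 as measured, adjusted p = 0.349 by limma) is uncertain. *Acvr1c*, an activin receptor of fat cells, fell by 1.43, and by 0.78 without LBW 3. *Adrb3*, the β3-adrenergic receptor gene, fell by 1.14, and by 0.69 without ABW 2. Both overlapped between the groups. *Adipoq*, the adiponectin gene and a target that the study sets beside *Pparg*, read 12.83, 13.02 and 11.56 in LBW and 12.91, 13.66 and 13.68 in ABW pups. Its log2 change of -0.94 (SE 0.42, adjusted p = 0.431 by limma) did not pass, with LBW 2 above ABW 1 (exact permutation test, p = 0.2). It passed without ABW 1 (-1.19) and without LBW 2 (-1.22), as well as with array weights (-0.86) and with an intensity trend (-0.94), and was -0.49 without LBW 3. *Fabp4*, the brightest gene of the list, was at -0.19 and did not overlap, while *Cd36* was at -0.09. The count and the median rested on single pups. Of the 23 genes, 0 passed without LBW 1 or without ABW 2, 1 without LBW 3 or without ABW 3, 7 without ABW 1 and 4 without LBW 2. *Lep* passed in only 1 of these 6 fits, the fit without ABW 1, *Aqp7* in 3, and *Adrb3* and *Acvr1c* in 2 each, without LBW 2 or ABW 1. The median was -0.16 without ABW 2, -0.41 without LBW 2 and -0.49 without ABW 1.

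Of 26 PPARα and PPARδ targets of muscle with a row, 16 were higher and 10 lower, and the median was 0.04. The number lower was 6 without ABW 2, 7 without LBW 1 and 14 without ABW 3. *Cpt1b*, the muscle carnitine palmitoyltransferase, was at 0.33 and *Ucp3* at 0.41, and in both all LBW pups were above all ABW pups without reaching 1.5-fold. The kinase gene *Pdk4* was also at 0.33, with overlapping groups. Among 16 genes that PGC-1 coactivators regulate or work with, 0 passed, with 10 higher and 6 lower, but 12 were lower without LBW 2. The median was 0.02. The receptor gene *Esrrg* was at 0.42 and the respiratory chain genes *Cox4i1* and *Atp5f1b* were at 0.04 and 0.01. The list of LXR targets had 11 genes with a row, among them *Nr1h2*, the gene of LXRβ itself, which also stands in the list of RXR partners, and *Lpl* and *Scd*, which are also counted as PPARγ targets. Of the 11, 10 were lower and *Nr1h2* was at 0.10, and 1 passed, *Abcd2*, a peroxisomal transporter of very long chain fatty acids (-1.02, adjusted p = 0.383 by limma, overlapping groups, and -0.57 without LBW 3), a call lost without LBW 1, LBW 3, ABW 2 or ABW 3. The median of -0.26 became -0.16 without LBW 1, -0.13 without LBW 3, -0.11 without ABW 3, -0.07 without ABW 2 and -0.38 without ABW 1. The cholesterol transporter gene *Abca1* was at -0.34 and the lipogenic genes *Scd* and *Fasn* were at -0.32 and -0.08.

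**Figure D4:**
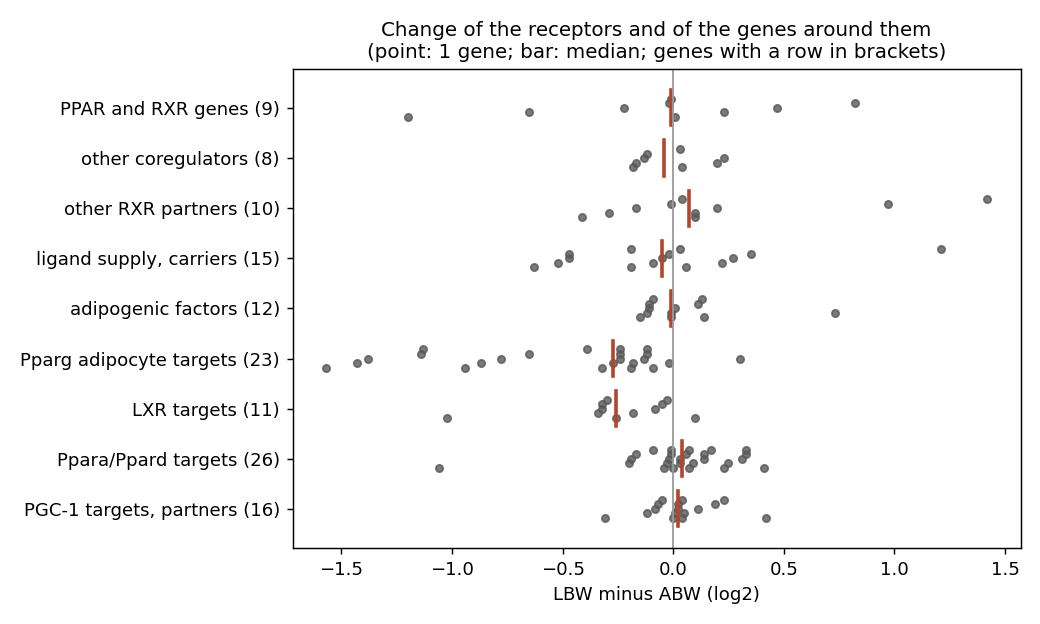
Log2 change of LBW against ABW (x axis) for every gene with a row among the receptors and in the 8 lists of coregulators, partners, factors, ligand supply and targets (y axis), without the cell type markers, with a point for each gene and a red bar for the median of the list. The *Pparg* adipocyte targets and the LXR targets lie mostly to the left of 0, with medians of -0.27 and -0.26, and the medians of the other rows of the plot lie between -0.05 and 0.07.

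White adipocyte markers, of which 10 are also counted among the listed PPARγ targets, were lower in all 12 with a row when *Pparg* was left out. Their median was -0.52, and 2 passed, *Aqp7* and the dim *Lep*. With *Pparg* counted, 3 of 13 passed, which became 1 without LBW 1, LBW 3 or ABW 2, 2 without ABW 3 and 5 without ABW 1. Averaged over these 12 markers, LBW 1, 2 and 3 were at -0.38, -0.30 and -1.29 and ABW 1, 2 and 3 at -0.48, 0.35 and 0.13 relative to the ABW mean. The summed signal was 80087, 85019 and 63667 in LBW and 78302, 110531 and 102368 in ABW pups, with *Fabp4* as the most abundant gene. The markers were lowest in LBW 3 and low in ABW 1, where *Pparg* was also low. The median was -0.19 without LBW 3 and -0.79 without ABW 1. The brown fat gene *Ucp1*, at 5.30 to 6.18, lay in the dimmest 25% of the array. *Pparg* minus the mean of the 12 markers within a pup was at -0.59, -0.93 and -0.11 in LBW and at -0.35, 0.15 and 0.20 in ABW pups relative to the ABW mean, a difference of -0.55 compared to -1.20 without this subtraction. LBW 3 lay above ABW 1 on this measure (exact permutation test, 2-sided p = 0.2). Macrophage markers, beside *Nr1h3*, were lower in 8 of 11 and 0 passed. Their median of -0.19 became -0.01 without ABW 3, -0.02 without ABW 2 and -0.29 without ABW 1. They were at -0.14, -0.15 and -0.11 in LBW and -0.38, 0.16 and 0.23 in ABW pups, the summed signal was 36272, 37004 and 39922 in LBW and 33680, 42930 and 45675 in ABW pups, and *C1qc* was the most abundant gene. Fibroblast markers were lower in 6 of 6 (median -0.14, 0 passed) and endothelial markers in 4 of 6 (median -0.14, 0 passed).

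Bone markers, which include genes that the study names for these samples, were higher in 10 of 10, and 6 passed (*Spp1*, *Ibsp*, *Bglap*, *Alpl*, *Phex* and *Smpd3*), with a median of 2.13 that was 3.12 without LBW 2 and 1.23 without LBW 3. Relative to the ABW mean they averaged 3.02, 0.51 and 3.91 in LBW 1, 2 and 3 and -0.12, -0.04 and 0.15 in ABW pups. The summed signal was 35847, 4548 and 58042 in LBW and 2388, 2520 and 2891 in ABW pups. *Spp1*, the osteopontin gene, read 13.03, 9.78 and 14.24 in LBW and 7.27, 7.52 and 7.18 in ABW pups, and passed with each pup left out, as did *Ibsp* and *Bglap*. The call was lost for *Alpl* without LBW 1, for *Smpd3* without LBW 1, LBW 3 or ABW 2, and for *Phex* without LBW 1, LBW 3 or ABW 1. The matrix protease gene *Mmp9*, which the study sets beside *Pparg*, read 9.50, 6.49 and 11.40 in LBW and 6.53, 5.96 and 6.24 in ABW pups, a log2 change of 2.89 (adjusted p = 0.381 by limma). LBW 2 was within the ABW values of *Mmp9*, and of the 6 fits that each leave out a pup, only the fit without LBW 2 kept it past the threshold (4.21). *Pparg* in LBW 2, the LBW pup with the lowest bone markers, lay between LBW 1 and LBW 3, and the log2 change of *Ppara* was between 0.68 and 1.03 with each pup left out, LBW 2 included. The part of the adipocyte, macrophage and bone markers in the changes of *Pparg*, *Nr1h3* and *Ppara* was not tested. *Slc2a4*, the insulin-responsive glucose transporter gene, overlapped between the groups, with a log2 change of 0.30 (adjusted p = 0.765 by limma) that was 0.01 without LBW 1, 0.15 without ABW 3 and 0.66, past the threshold, without LBW 3.

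**Figure D5:**
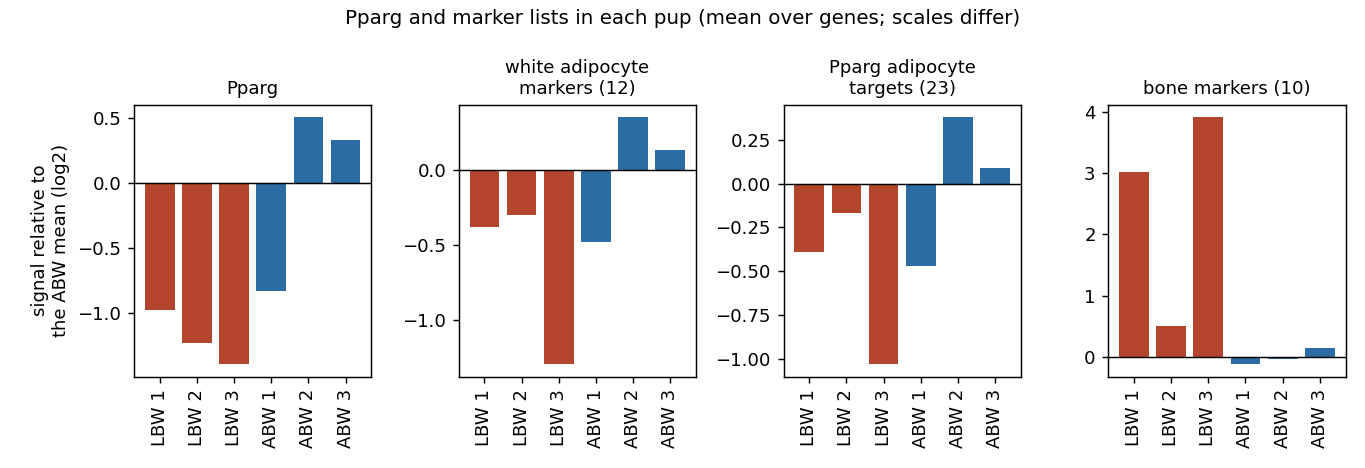
Signal in each pup (x axis) relative to the ABW mean (y axis, log2, with a different scale in each panel) for *Pparg* and for the mean of 12 white adipocyte markers, 23 *Pparg* adipocyte targets and 10 bone markers, with LBW pups in red and ABW pups in blue. *Pparg* and the adipocyte markers are below 0 in ABW 1 as in the LBW pups, and the bone markers are high in LBW 1 and LBW 3 and low in LBW 2.

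The genes whose signal followed that of *Pparg* most closely over the 6 pups, of 9621 named genes, were *Hmgn2* (Pearson r 0.997), *Ctsh* (0.997), *Mospd3* (0.993), *Adgre4* (0.992) and *Ccl6* (0.986). The level of *Ccl6*, a chemokine, was 10.91, 10.93 and 10.65 in LBW and 11.29, 12.28 and 11.99 in ABW pups. *Hmgn2* and *Ctsh* followed the same order with log2 changes of only -0.13 each. For *Rxra* they were *Chrna10* (0.971), *Chrm1* (0.971), *Mrgprg* (0.970), *RT1-DOb* (0.961) and *Spata19* (0.957), all with signals between 5.12 and 7.25. Within the set, *Pparg* had r of 0.87 with *Nr1h3*, -0.87 with *Ppara* and -0.90 with *Ppargc1b*, and *Rxra* had -0.07. These correlations describe 6 points that share the split between the groups, and no p is given.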

How the data were processed

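Muscle RNA of each of 3 LBW and 3 ABW pups was hybridized to a single-colour array of its own. The values are log2 signals that the authors deposited after normalization with Bioconductor and their own R scripts, in 26419 rows of 1 transcript each. The submitters' processing notes name RMA. How background was corrected is not given in the sources used here. The values carry no detection call or count depth. Precision is limited by the number of arrays.

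Rows were named through a rat RefSeq gene table (GRCr8), which gave 9621 symbols to 9740 rows (36.9%), and rows of a symbol were averaged, which left 26300 features. The array follows another build, so no array coordinates are given. Promoter windows came from RefSeq, GRCr8. *Mmp13* has no row matched through this table and was not analysed here.

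LBW and ABW were compared in R 4.3.3 by the moderated test of limma 3.58.1 (2-sided, Benjamini-Hochberg over all features), and single differences by exact permutation of the pups. The threshold was that of the study, a p under 0.05 and a change of at least 1.5-fold, with the p taken here as unadjusted. The members and lists were chosen with earlier results of these data known. Named genes were every member, for each list at most 4 genes of largest change and 4 of highest signal and all past the threshold, the genes that the study sets beside *Pparg*, and the 5 genes most like *Pparg* or *Rxra*. A few genes within this rule are left out of the text. Genes outside this rule were named after their values were seen. The fit was tested on simulated data. The alternatives were array weights, quantile normalization, centring on the median, an intensity trend, a robust variance, rows as deposited, no dim features, a change of at least 2-fold, the methods' test, a replicate block and leaving out each pup. Leaving out each pup for the counts and medians of the lists, other than the median of the *Pparg* targets, was chosen after seeing the data.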

Additional observations from a re-analysis of the deposited data

How the results depend on the processing

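*Ppara* and *Pparg* kept their direction under every alternative run. *Pparg* (-1.20) missed the threshold of the study by the methods' test, on its p, and its log2 change lay between -1.62 and -0.95 with each pup left out. The features past the threshold numbered 1124 and became 584 with the methods' test and 335 at a change of at least 2-fold, and 798 to 1546 with a pup left out. For the members the count of 3 became 1 with the methods' test and 1 at 2-fold, and 2 to 4 with a pup left out. The count after adjustment was 0, and 0 to 125 with a pup left out, 125 being the fit without LBW 2. The sign of *Rxra* turned with array weights (-0.01), and it was -0.04 to 0.07 with a pup left out. *Rxrb* turned with array weights (0.01) and was -0.09 to 0.02, and *Ppargc1a* turned with array weights (0.02) and was -0.08 to 0.09. The replicate numbers do not pair the pups, whose deviations correlated at 0.087, 0.104 and 0.055, and with the number as a block 1230 features and 3 members passed (*Pparg* -1.20), 1069 features being called in both fits. Of the 23 *Pparg* adipocyte targets, 0 to 7 passed with a pup left out, and 1 to 5 of the 13 white adipocyte markers. The cause of these shifts was not tested.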
